A study of Ginkgo biloba with 6 samples.

Results

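The 100 most abundant transcripts of Ginkgo biloba leaves were taken as the 100 gene IDs starting with Gb that had the highest mean FPKM over 6 leaf libraries. They were chosen from 25439 Gb IDs in a table of 26044 IDs, and ties were broken by the order of the table. FPKM scales fragments to the length of the transcript and to the size of the library, so that levels can be set side by side between transcripts of different length. The libraries formed a truncated group, from trees whose trunk had been cut at a height of 85 cm, and a control group of uncut trees, with 3 libraries each, lettered A, B and C. All trees were 5-year-old plants of the cultivar Fozhi, at a row spacing of 0.6 m in a nursery for leaf harvest, and 30 trees were assigned to each group. Leaves were taken at the harvesting stage. How many trees entered a library is not said in the labels, and separate trees are not stated, so a p-value here reflects how these libraries vary, which can be technical in part.

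Leaf messenger RNA is typically uneven: a small set of transcripts makes up much of the pool. In green leaves this set usually includes the nuclear genes for photosynthesis, such as the small subunit of Rubisco, the carbon-fixing enzyme, and the chlorophyll-binding proteins of the light-harvesting antennae, many of which belong to families of near-identical copies. The IDs come with no gene names, positions or sequences in the material used here, so no role was given to any ID, leaf markers were not looked up, and flavonoid genes, which the series title is about, were not counted.

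Because the mean over all libraries chose the IDs, their high level is a description and no result. The comparison of truncated with control leaves was not used in the choice. The number of sequenced fragments is not recorded for any library, so no counting error is given, and the FPKM of all IDs summed to 738322 in truncated B, the most, and to 655395 in truncated C, the least. For the 100 transcripts, some libraries stood apart irrespective of group. Of the 100 transcripts, 61 had their highest FPKM in truncated B, whereas 56 had their lowest in control B and 24 in truncated C. With each library scaled to the same sum, truncated B still held the highest value of 47 transcripts and control B the lowest of 55. These counts were not made over all IDs, so whether the pattern is particular to the 100 was not tested. A choice by the mean also favours IDs with a high value in any library. The FPKM of the IDs outside the 100 summed to 368083 in truncated B, the least, and to 410565 in truncated C, the most. In a bulk leaf sample, fewer cells of a type and less RNA per cell cannot be told apart.

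The levels of the 100 transcripts covered a wide range. The mean was 20370 FPKM for the first, Gb_06050, and 778.7 FPKM for the last, a 26.2-fold difference, with a median of 1493 FPKM, against a median of 7.36 FPKM over the 16054 IDs that averaged 1 FPKM or more. Of the 100, 7 averaged at least 10000 FPKM, 7 averaged 5000 to 10000 FPKM, 24 averaged 2000 to 5000 FPKM, 39 averaged 1000 to 2000 FPKM and 23 averaged less than 1000 FPKM. None of the 605 IDs starting with XLOC came near this level, their highest mean being 38.6 FPKM.

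Gb_06050 was the highest transcript in each of the 6 libraries. It had 18486, 26269 and 16193 FPKM in truncated A, B and C, against 19877, 20197 and 21200 FPKM in control A, B and C. The truncated libraries thus held both its highest and its lowest value, with the controls close together between them. Gb_00381, the second by mean, had 17050, 20574 and 15545 FPKM in truncated A, B and C, against 14704, 10868 and 14838 FPKM in control A, B and C. Its groups did not overlap, and it ranked 2 in each truncated library and in control C, but 4 in control A and control B. Gb_23960 and Gb_41807, in places 3 and 4, carried the same values, namely 13184, 20526 and 5805 FPKM in truncated A, B and C, against 14835, 14551 and 14422 FPKM in control A, B and C. The controls of this pair differed little, and the truncated libraries lay on both sides of them.

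The other 3 transcripts above 10000 FPKM had overlapping groups. Gb_00380 had 11758, 15434 and 10182 FPKM in truncated A, B and C, against 14581, 10494 and 12281 FPKM in control A, B and C. Gb_14539 had 13463, 15139 and 7694 FPKM in the truncated libraries, against 13923, 10402 and 13489 FPKM in the controls. Gb_23731 had 12173, 14695 and 9686 FPKM in the truncated libraries, against 13705, 8657 and 11837 FPKM in the controls. In all 3, truncated B was the highest library, and the lowest was truncated C or control B. Places 8 to 20 were taken by Gb_21119, Gb_23735, Gb_00391, Gb_27900, Gb_04149, Gb_27902, Gb_19355, Gb_27876, Gb_30778, Gb_27885, Gb_32082, Gb_03515 and Gb_13268, with means between 8440 and 3448 FPKM.

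**Figure D1:**
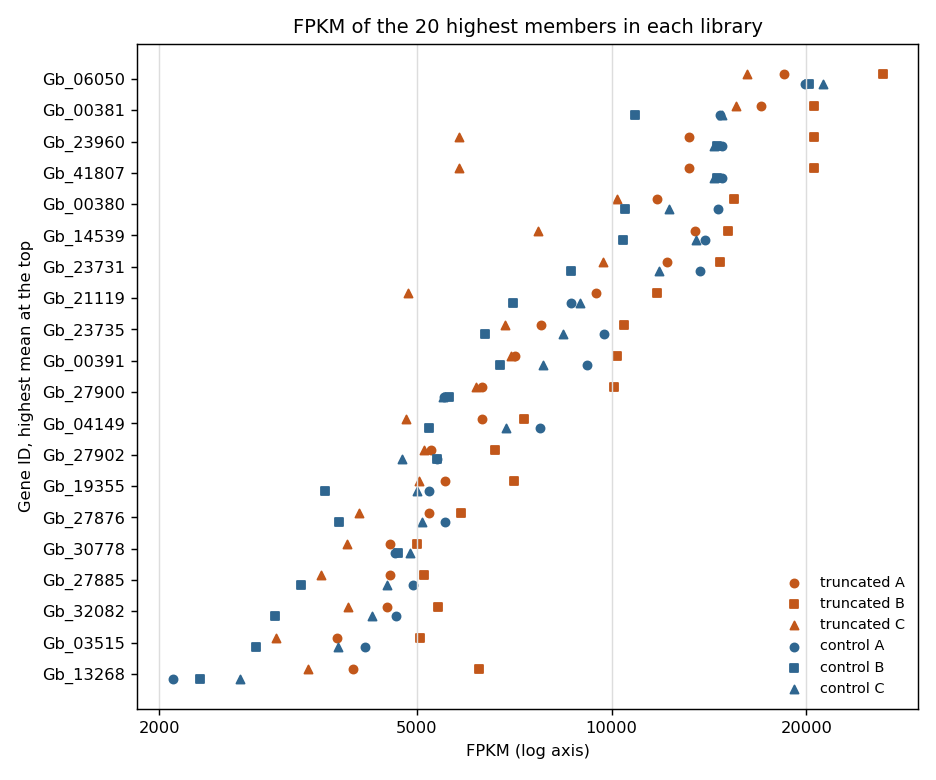
FPKM of the 20 most abundant transcripts (rows, highest mean at the top) in the 6 libraries, on a log axis; orange marks truncated and blue marks control libraries, with a circle, square and triangle for A, B and C. Gb_06050 lies at 16193 FPKM or more in every library, and the identical rows of Gb_23960 and Gb_41807 reach down to 5805 FPKM in truncated C.

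The lower boundary of the set fell inside a group of IDs with identical values. Places 99 and 100 were Gb_07843 and Gb_09281, and Gb_20491, just outside at place 101, had the same 6 values, with a mean of 778.7 FPKM, so that only the order of the table left it out. Just inside, Gb_19744 in place 98 averaged 827.6 FPKM. Just outside, Gb_07296 and Gb_01846 in places 102 and 103 averaged 762.6 and 749.6 FPKM.

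The IDs with identical values formed 2 sets that touched the 100 transcripts: Gb_23960 with Gb_41807, and Gb_07843 with Gb_09281 and Gb_20491. These put 4 of the 100 transcripts, 4%, in a set of IDs equal in all 6 libraries to the deposited precision of 2 decimals. Over the 16054 IDs that averaged 1 FPKM or more, 93 IDs in 41 sets, 0.579%, shared all 6 values. With a tolerance of 1% in each library the sets were the same 2. Where IDs share all values, the level of each is uncertain, and such IDs are not independent observations. Why their values are equal was not tested.

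The share of the transcript pool held by the 100 transcripts differed more between libraries than between the groups. They made up 43.6%, 50.1% and 37.4% of the summed FPKM in truncated A, B and C, against 45.2%, 38.1% and 43.6% in control A, B and C. The mean was 43.7 ± 6.4% in truncated and 42.3 ± 3.8% in control leaves (SD, n = 3 each), a difference of 1.41 percentage points that was within the SD of either group (two-sided exact permutation test, p = 1). The first transcript alone held 2.91 ± 0.57% in truncated and 3.03 ± 0.13% in control leaves (SD, n = 3; two-sided exact permutation test, p = 0.9). The first 10 held 18.1 ± 4.4% in truncated and 18.3 ± 1.4% in control leaves (SD, n = 3; two-sided exact permutation test, p = 0.9), with 22.4% in truncated B as the highest and 13.7% in truncated C as the lowest share. The first 25 held 27.9 ± 5.6% in truncated and 27.1 ± 2.3% in control leaves (SD, n = 3; two-sided exact permutation test, p = 1). The groups overlapped for each of these shares.

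A count of IDs showed the same unevenness. The number of IDs, taken from the highest down, that held 50% of the summed FPKM was 176, 95 and 275 in truncated A, B and C, against 151, 291 and 177 in control A, B and C. The groups overlapped (two-sided exact permutation test, p = 0.7). Together with the ranks described next, and with the share of each library's own 100 highest IDs, 7 measures of the libraries were compared. The Benjamini-Hochberg adjusted p over them was 1 for each, and 3 against 3 libraries cannot give an unadjusted p under 0.1. Without truncated B, the mean share of the 100 transcripts in truncated minus that in control leaves was -1.81 percentage points. Without control B and truncated C together, a choice made after seeing the data, the 100 transcripts held 46.9% in truncated and 44.4% in control leaves.

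**Figure D2:**
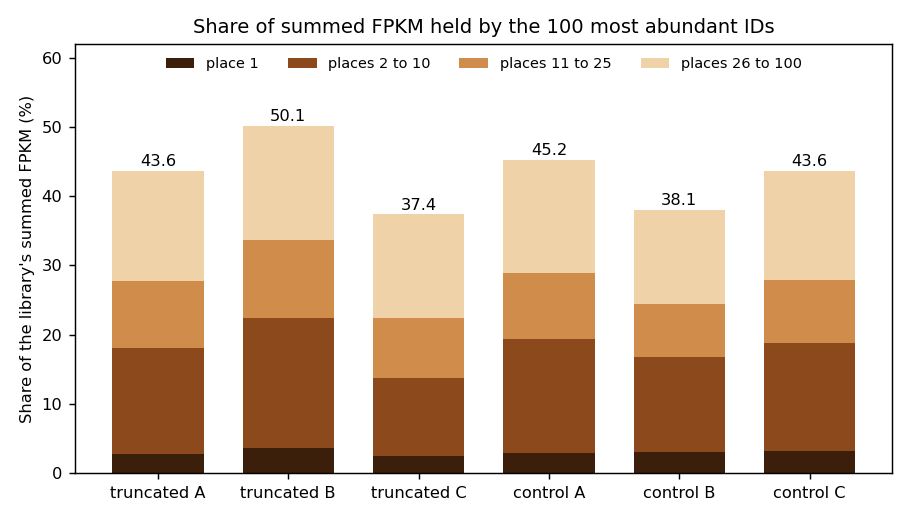
Share of each library's summed FPKM, in percent, held by the 100 most abundant transcripts, stacked by place; the number above each bar is the total. Truncated B, at 50.1%, and truncated C, at 37.4%, are the highest and lowest bars, and the controls lie between 38.1% and 45.2%.

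Ranks, which do not depend on a scaling common to all IDs of a library, moved little at the top and more at the bottom of the set. The distance between the best and the worst of the 6 ranks had a median of 8.5 places for places 1 to 50 and 26 places for places 51 to 100. It was at most 10 places for 28 transcripts and above 50 places for 11. A given fold change crosses more ranks where the means lie closer together, as they do low in the set. Gb_23960, in place 3, had a range of 3.54-fold and moved 7 places. Gb_07843, in place 99, had a range of 1.88-fold and moved 59 places. Rank distances thus do not compare how steady the levels were. Of the 100 transcripts, 79 were among the 100 highest Gb IDs of every library, and 2 were so in only 2 libraries. Over all libraries, 128 IDs were among the 100 highest of at least 1 library.

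The number of the 100 transcripts among a library's own 100 highest was 94, 93 and 90 in truncated A, B and C, against 95, 88 and 96 in control A, B and C. It averaged 92.3 ± 2.1 in truncated and 93.0 ± 4.4 in control leaves (SD, n = 3; two-sided exact permutation test, p = 0.9). Without control B, where it was lowest, the choice of transcripts being repeated on the other 5 libraries, the truncated mean minus the control mean was -4.17. The own lists of 2 libraries shared 85 to 90 of their 100 IDs in the 3 pairs of truncated libraries, 82 to 93 in the 9 pairs across groups and 86 to 96 in the 3 pairs of controls. The pair with the most shared IDs was control A with control C, and the pair with the fewest was truncated B with control B. The 100 highest IDs by the truncated mean and the 100 highest by the control mean had 93 in common.

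**Figure D3:**
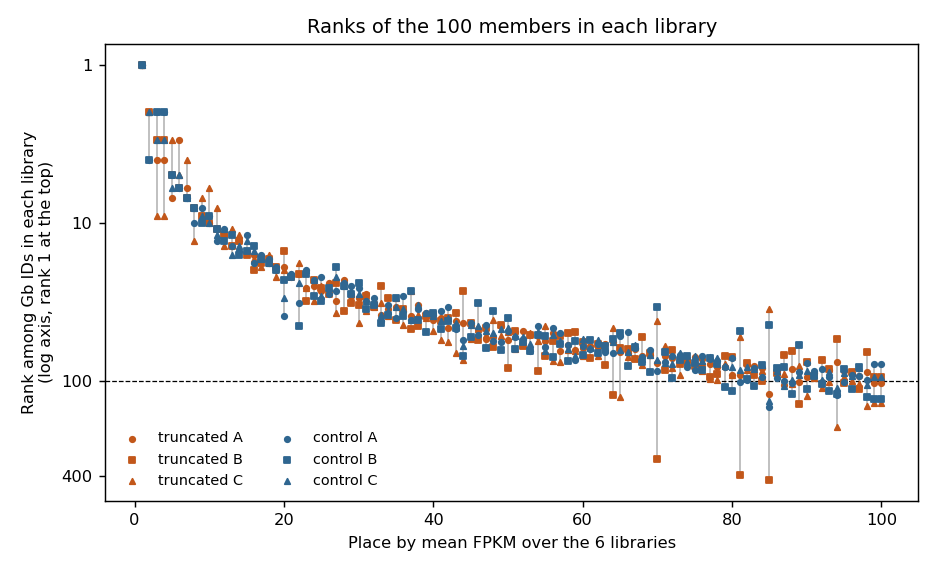
Rank of each of the 100 transcripts among Gb IDs in each library (log axis, rank 1 at the top) against its place by mean FPKM; grey lines join the best and worst rank, and the dashed line marks rank 100. Gb_04109, Gb_29922 and Gb_29913, at places 85, 81 and 70, reach ranks 423, 395 and 310 in truncated B.

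Between libraries most of the 100 transcripts kept their level within a narrow range. The highest library was less than 2-fold above the lowest for 83 of the 100 transcripts, and less than 1.5-fold for 25. The same measure, with 1 FPKM added to each value, was under 2-fold for 83% of the 100 transcripts and for 58.6% of the 16054 IDs, a description in which the weaker IDs also carry more counting noise. The steadiest was Gb_27511, with 917.3, 957.6 and 859.8 FPKM in truncated A, B and C, against 887.7, 874.0 and 903.1 FPKM in control A, B and C, a range of 1.11-fold. Gb_13610, which had 1614, 1608 and 1673 FPKM in the truncated libraries, against 1590, 1772 and 1636 FPKM in the controls, also had a range of 1.11-fold. Both had overlapping groups, and the highest value of Gb_13610 was that of control B. Gb_22919, Gb_31936 and Gb_10221 followed, with ranges of 1.16-fold, 1.16-fold and 1.18-fold.

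The 7 transcripts with a range of at least 3-fold included 3 that were lowest in truncated B and highest in truncated C. Gb_04109 had 656.3, 191.8 and 2038 FPKM in truncated A, B and C, against 514.2, 1527 and 551.7 FPKM in control A, B and C, a range of 10.6-fold. Gb_29922 had 882.4, 206.9 and 1482 FPKM in the truncated libraries, against 803.7, 1374 and 907.7 FPKM in the controls, a range of 7.16-fold. Gb_29913 had 1062, 266.3 and 1805 FPKM in the truncated libraries, against 975.0, 1674 and 1121 FPKM in the controls, a range of 6.78-fold. In all 3, truncated C and control B were the 2 highest libraries, so that the pattern ran across the groups. Without truncated B the ranges were 3.96-fold, 1.84-fold and 1.85-fold, so that the ranges rest largely on this library.

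Other transcripts had the opposite order of truncated B and truncated C. Gb_19750 had 1069, 1727 and 368.3 FPKM in truncated A, B and C, against 616.9, 630.9 and 716.0 FPKM in control A, B and C. Its controls were close together, and the range of 4.69-fold came from the truncated libraries. The identical pair Gb_23960 and Gb_41807 had a range of 3.54-fold, which was 1.56-fold without truncated C. Gb_22789, with a range of 3.39-fold, had 3370 FPKM in truncated B and 1015 FPKM in truncated C. Gb_19750 and Gb_21382 were next after the 3 transcripts above in the distance between best and worst rank, with 142 and 81 places. Unlike Gb_19750, Gb_21382 was lowest in truncated B, at 552.5 FPKM, with 950.1 FPKM in truncated C.

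**Figure D4:**
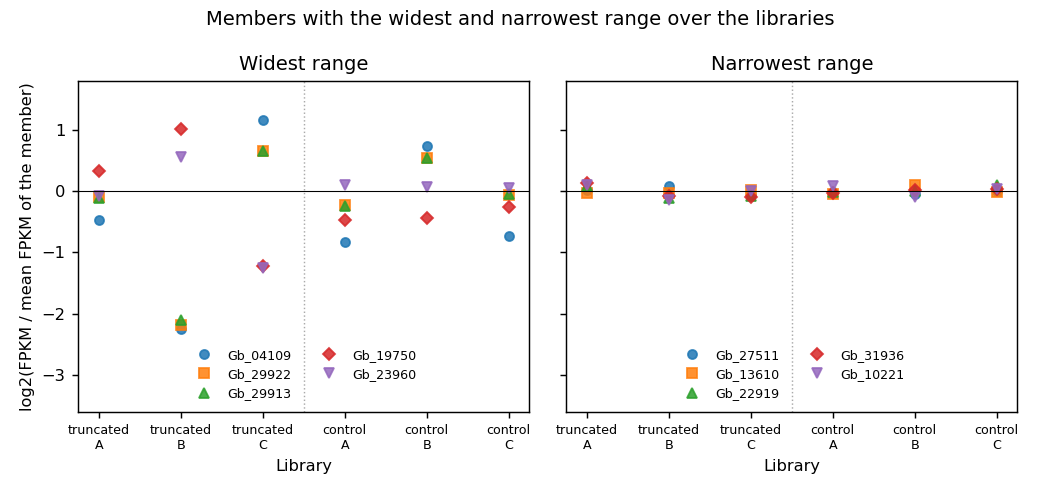
FPKM of single transcripts relative to their own mean, on a log2 scale, in the 3 truncated (left of the dotted line) and 3 control libraries (right), for the 5 with the widest range and the 5 with the narrowest. Gb_23960 stands also for the identical Gb_41807. In the left panel, the 3 transcripts that are lowest in truncated B have ranges of 10.6-fold, 7.16-fold and 6.78-fold, while in the right panel the 5 narrowest stay within 1.18-fold.

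No difference between truncated and control leaves in the 100 transcripts passed the test applied to the whole table. All 100 passed the filter, a mean of 1 FPKM or more, as their choice implies, and limma called 0 of them at a Benjamini-Hochberg adjusted p under 0.05, against 0% of the 16054 IDs tested. The smallest adjusted p among them was 0.436. At an unadjusted p under 0.05, limma gave 2 of the 100, both higher in truncated leaves, against 6.87% of all IDs tested, 4.3% higher and 2.57% lower. With quantile normalization, 3 were higher and 2 lower at this level. With library quality weights, an alternative added after seeing the data, limma called 3 of the 100 at an adjusted p under 0.05, as described with the other alternatives. The shares of all IDs were not counted under these 2 alternatives.

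The estimated differences were below 2-fold with all libraries in the fit. No transcript of the 100 reached a 2-fold difference between the groups, where 2.39% of all IDs tested did. With so low a share, 0 of the 100 is near that of all IDs. Without truncated C, the log2 fold change of Gb_13268 was 1.08. For 85 of the 100, the unadjusted 95% interval lay within 2-fold in either direction, against 64.1% of all IDs tested. Both contrasts with all IDs are descriptions in which the weaker IDs also carry more counting noise. The wider intervals allow differences of more than 2-fold, as for Gb_04109, with a log2 interval of -2.29 to 1.79. The log2 fold change, on the log2(FPKM + 1) scale and with truncated over control, ran from -0.63 to 0.90 with a median of 0.07, against a median of -0.05 over all IDs tested. The median of the 100 was -0.04 with quantile normalization. With 1 library left out it was between -0.05 without control B and 0.19 without truncated C, with -0.01 without truncated B, 0.16 without control A and 0.12 without control C. The log2 fold change was above 0 in 64 of the 100 transcripts and in 42.4% of all IDs tested. This count depended on scaling and on single libraries. It was 43 with quantile normalization, 59 with equal sums and 71 with median-of-ratios scaling. It was 48 without truncated B, 40 without control B and 81 without truncated C. The share above 0 over all IDs was not counted under these alternatives. The median log2 fold change over all IDs tested moved too. It was -0.02 with quantile normalization, 0.05 without truncated B, 0.01 without control B and -0.12 without truncated C.

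The 2 transcripts at the unadjusted level were both among the first 22. Gb_13268 had 3982, 6233 and 3395 FPKM in truncated A, B and C, against 2099, 2310 and 2670 FPKM in control A, B and C. All 3 truncated libraries lay above all 3 controls, and the mean was 4537 ± 1498 FPKM in truncated and 2360 ± 289 FPKM in control leaves (SD, n = 3 each). The log2 fold change was 0.90 ± 0.26 (SE; 95% interval 0.28 to 1.52; limma, unadjusted p = 0.0109, adjusted p = 0.436). Gb_05837 had 3686, 4533 and 3622 FPKM in truncated A, B and C, against 2578, 1523 and 2831 FPKM in control A, B and C. Its groups did not overlap either, with a log2 fold change of 0.81 ± 0.27 (SE; 95% interval 0.17 to 1.46; limma, unadjusted p = 0.0199, adjusted p = 0.526). Neither passed correction over the IDs tested.

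The 2 transcripts with the smallest p in the opposite direction were weaker ones. Gb_21382 had 762.5, 552.5 and 950.1 FPKM in truncated A, B and C, against 951.3, 1194 and 850.5 FPKM in control A, B and C, with overlapping groups. Its log2 fold change was -0.42 ± 0.24 (SE; limma, unadjusted p = 0.126, adjusted p = 0.864). Gb_10854 had 840.4, 724.4 and 746.0 FPKM in the truncated libraries, against 905.3, 888.8 and 911.7 FPKM in the controls. Its groups did not overlap, but the log2 fold change was only -0.23 ± 0.14 (SE; limma, unadjusted p = 0.138, adjusted p = 0.876). All 3 truncated libraries lay above all 3 controls for 9 of the 100 transcripts and below them for 1, against 7.2% and 6.9% of all IDs tested.

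**Figure D5:**
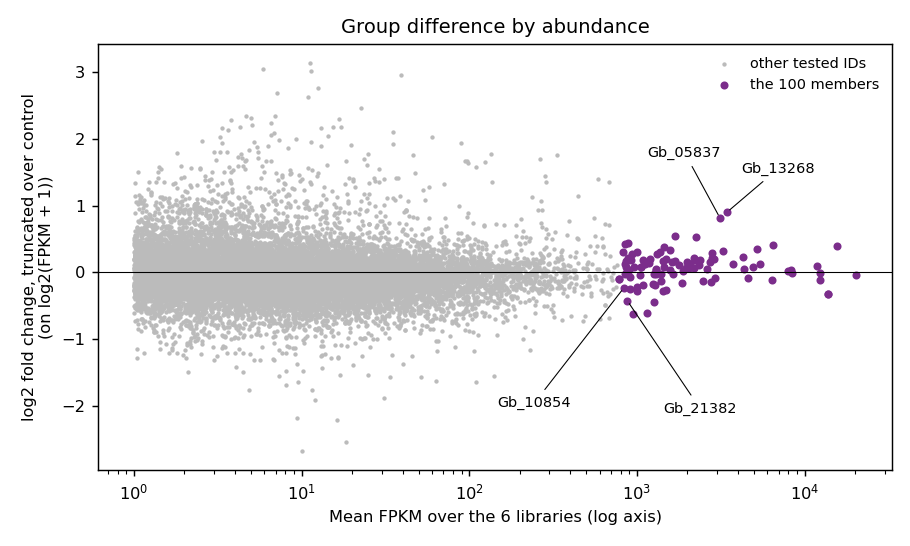
Log2 fold change of truncated over control leaves, on log2(FPKM + 1), against mean FPKM (log axis) for the 16054 IDs tested (grey) and the 100 most abundant (purple), with the 2 transcripts of smallest p in each direction named. The 100 lie between -0.63 and 0.90, and none passed the adjusted threshold in limma.

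Many of the 100 transcripts had numbers close to each other, a grouping made after their values were seen and described without a test. There were 31 transcripts in 14 runs of 2 or 3 whose numbers lay at most 10 from the next, and whether such numbers mean neighbouring positions or copies of a gene is not recorded in the material used here. Within these runs the ratio of 2 transcripts in the same library, which does not depend on scaling, was often nearly constant. Gb_27876 had 1.15, 1.14 and 1.14 times the FPKM of Gb_27885 in truncated A, B and C, against 1.12, 1.14 and 1.13 times in control A, B and C. The SD of the log2 ratio over the 6 libraries was 0.01 for this pair. Gb_29913 had 1.20 to 1.29 times the FPKM of Gb_29922 over the 6 libraries, although each varied 6.78-fold or more. Gb_23322 and Gb_23332 stayed within a ratio of 0.982 to 1.01. The median SD of the log2 ratio was 0.12 over the 20 pairs within runs and 0.28 over the 4928 other pairs of the 100 transcripts, the identical pairs left out. The pairs share transcripts and libraries and are not independent.

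In a few runs the ratios of the truncated libraries lay apart from those of the controls. Gb_13268 had 5.19, 5.28 and 4.67 times the FPKM of Gb_13270 in truncated A, B and C, against 2.12, 3.27 and 3.33 times in control A, B and C. The ratios did not overlap. Gb_13270 itself had overlapping groups, with 767.0, 1180 and 727.3 FPKM in truncated A, B and C, against 988.6, 707.0 and 801.7 FPKM in control A, B and C. Gb_00381 had 2.40, 2.02 and 2.22 times the FPKM of Gb_00391 in the truncated libraries, against 1.60, 1.62 and 1.90 times in the controls, again without overlap. Gb_00380 kept a ratio of 1.46 to 1.66 to Gb_00391 over all 6 libraries. The ratios also did not overlap for Gb_00380 to Gb_00381, Gb_27900 to Gb_27902 and Gb_23732 to Gb_23735. All other pairs within runs had overlapping ratios. Gb_13268, Gb_00381 and Gb_27900 each had groups without overlap in their own FPKM, so their ratios are no separate result. Gb_23732 and Gb_23735 each had overlapping groups in their own FPKM. The share of such pairs over all IDs was not counted. The pairs shown were chosen for their values, so no test is given.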

How the data were processed

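RNA from leaves was sequenced as 6 Illumina libraries. CASAVA 1.8, TopHat2 and RSEM were used, in roles that are not stated, per the submitters' processing notes. The genome build is not given in the sources used here, nor is the annotation. The authors deposited FPKM values, per the file headers, rounded to 2 decimals. Per-sample columns not used numbered 0. FPKM is relative to the library, so a library in which few transcripts take a large share shows lower values for the rest.

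Groups came from the treatment labels. As the values are not counts, count models were not used. Group differences were fitted with limma 3.58.1 (R 4.3.3) on log2(FPKM + 1) over the 16054 IDs that averaged 1 FPKM or more, with a mean-variance trend, two-sided, and Benjamini-Hochberg adjustment over all of them at a threshold of 0.05. The log2(FPKM + 1) scale understates changes of weak IDs. The fit was tested on simulated data with errors independent between IDs and changes of 2-fold or more. That test therefore does not show how well smaller differences would be found. Measures of the libraries were compared with exact permutation tests (Python 3.11.15). Shares are of the summed FPKM of all IDs, and ranks are among Gb IDs.

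The members and the rules were chosen with earlier results of these data known. Named were the 20 highest IDs, those at the boundary, the 5 of widest and narrowest range and of largest rank distance, all identical sets, and the 2 of smallest p in each direction. Alternatives changed the pseudocount (0.1, 0.5), the filter (none, 5 FPKM), scaling, variance model, threshold (0.01), choice of members and libraries, and used the letter as a replicate block. A fit with library quality weights and one leaving out control B with truncated C were added after seeing the data.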

Additional observations from a re-analysis of the deposited data

How the results depend on the processing

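The count of 0 of the 100 transcripts at an adjusted p under 0.05 (limma) stayed at 0 under each alternative run except library quality weights. With the weights 3 were called, Gb_13268, Gb_05837 and Gb_19750, all with a positive log2 fold change. The share of all IDs called with the weights was not counted, so 3 of the 100 is no result about the 100. Gb_19750 had overlapping groups, was lowest in truncated C and had an unadjusted p of 0.441 in limma without weights. Leaving truncated B out of the choice removed Gb_19750 from the 100. The weights gave truncated A 45.0 and every other library at most 2.02, and the cause of the calls was not tested. The smallest adjusted p was otherwise between 0.379 without truncated C and 0.992 without control A, and it was 0.9996 with the letter as a replicate block. The 2 transcripts at an unadjusted p under 0.05 became 4 with equal sums, 5 with quantile normalization, 1 with median-of-ratios scaling, 1 without truncated B, 7 without truncated C, 5 without control B and truncated C together, 15 with the weights (11 of them higher) and 1 with the replicate block. The share of all IDs at this level was not counted under these alternatives. Whether the 100 changed more or less than other IDs in them is therefore not shown. The labels do not say that the letters pair libraries. Deviations from the group means correlated across IDs at 0.19 between the libraries lettered A, at -0.58 between those lettered B and at -0.55 between those lettered C. Across different letters the correlation ran from -0.48 for truncated C with control A to 0.68 for truncated C with control B. The 3 deviations of a group are tied to each other, so these correlations cannot decide whether the letters pair libraries. As the labels state no pairing, the letters were kept as names. The 4 fold changes named for their p kept their direction throughout, which their choice by p makes likely. The difference in the share of the 100 transcripts was -1.81 to 4.58 percentage points with 1 library left out, and that in the count among a library's own 100 highest was -4.17 to 0.83. Choosing by the median, by log2(FPKM + 1), by scaled values or without 1 library kept 98 to 100 of the transcripts. Sequencing depth is unknown, so no counting limit is stated.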

Other observations

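The choice by the mean over 6 libraries left out 28 IDs that were among the 100 highest of 1 to 3 libraries, and the examples here were picked after their values were seen. Gb_25968 had 414.8, 366.6 and 2446 FPKM in truncated A, B and C, against 237.4, 270.3 and 341.4 FPKM in control A, B and C. Gb_16994 had 363.7, 313.7 and 2108 FPKM in the truncated libraries, against 194.0, 238.1 and 283.9 FPKM in the controls. In both, truncated C stood far above the other 5 libraries. Gb_07675 had 447.0, 979.4 and 169.9 FPKM in truncated A, B and C, against 71.2, 133.7 and 200.01 FPKM in control A, B and C, and was highest in truncated B. Gb_05876 had 300.9, 140.9 and 847.5 FPKM in the truncated libraries, against 423.9, 859.5 and 381.4 FPKM in the controls, with truncated C and control B at nearly the same level. Gb_04496 was among the 100 highest of all 3 controls and of no truncated library, with 660.6, 358.6 and 583.6 FPKM in truncated A, B and C, against 851.0, 809.4 and 816.8 FPKM in control A, B and C. Gb_06117 had the opposite order, with 820.3, 844.3 and 739.2 FPKM in the truncated libraries, against 512.5, 387.2 and 573.7 FPKM in the controls. Of all IDs tested, 6.9% had every truncated library below every control, and 7.2% above.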
